A study of Mus musculus with 8 samples.

Results

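Elavl2, Elavl4 and Msi2 encode RNA-binding proteins of nervous tissue, and the RNA crosslinked to Ptbp2 along these 3 genes was examined in the embryonic mouse cortex. Their tags were taken by position and strand, as all tags with a midpoint inside 1 window for each gene. All are minus-strand windows in mm9, with positions counted from 1. Elavl2 was given chr4:90890000-91070000, Elavl4 chr4:109870000-110022000 and Msi2 chr11:88150000-88590000. The 3 windows held 1915 of 3098854 tags, or 0.0618%. They were compared with strand-specific tiles of 100 kb over the genome, which with the 3 windows made 51058 regions with a tag.

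Tags came from wild-type mice of the CD1 strain at embryonic day 18.5, with 4 libraries from brain 2 and 4 from brain 1, the 2 biological replicates. Both brains share genotype, stage and tissue, and the labels give no treatment. In HITS-CLIP, ultraviolet light fixes a protein to RNA in contact with it, the protein is precipitated, and the RNA pieces that come with it are sequenced as tags. No library of input RNA, another antibody or another genotype was analysed here, so a tag density reflects binding and transcript abundance together, and in bulk cortex fewer cells of a type and less RNA per cell cannot be told apart. Markers of the cortex were not checked, because no gene annotation of the build was used.

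Ptbp2 is the polypyrimidine tract-binding protein of developing neurons. It contacts CU-rich stretches of precursor RNA and mostly represses the inclusion of nearby alternative exons. The Elavl, or Hu, proteins bind U-rich and AU-rich RNA, where they stabilise messenger RNA and regulate splicing and translation. Elavl2 (HuB) and Elavl4 (HuD) are neuronal members of the family, active as neurons differentiate. Musashi proteins bind short UAG-containing elements and regulate translation, and Msi2 is known for its role in neural progenitors and other stem cells. Elavl1, Elavl3 and Msi1, the other genes of these families, were not analysed here.

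Libraries held between 228424 and 545387 tags, with 1165859 tags in brain 2 and 1932995 in brain 1. A single tag was therefore worth between 1.83 and 4.38 CPM (a tag count scaled to the library's total). The 4 libraries of a brain come from 1 animal, so tests between the brains measure the spread between libraries, which is technical. Intervals on counts are exact 95% intervals that cover counting error only.

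The windows were set against gene lengths in RefSeq GRCm38.p6, another build, from which names, lengths and the order of genes were used but no coordinates are given. The Elavl4 window of 152 kb compared with a gene length of 148 kb, the Msi2 window of 440 kb with 379 kb, and the Elavl2 window of 180 kb with 189 kb. Few minus-strand tags lay just outside most window edges. Beyond the low, or 3′, edge of the Elavl4 window the next 10 kb held 2 minus-strand tags, against 8 in the first 10 kb inside. Beyond the 3′ edge of Msi2 there was 1 tag, against 22 inside. The 3′ edge of the Elavl2 window was different, with 63 tags in the 10 kb outside it and 35 in the 10 kb inside it. A further 10 kb out only 3 tags remained. A cluster with 16 tags over its highest base crossed that edge, from 90889940 to 90890006, with its midpoint outside the window, so it was not counted as Elavl2. The window is shorter than the RefSeq gene, and whether it leaves out the 3′ end of the gene was not tested, so the Elavl2 values hold for the window only. At the 5′ edges, the 10 kb outside held 1 tag for Elavl2, 4 for Elavl4 and 1 for Msi2. The 10 kb inside held 2, 11 and 2, so in Elavl2 and Msi2 the tags were already few before that edge. The table places Gm12653 and Mir6402 within Elavl2, and Mir378b, Gm11510 and 0610039H22Rik within Msi2, and any tags of these genes would be counted with their hosts.

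Elavl2, the HuB gene, was the most densely tagged of the 3. Its window held 875 tags (95% interval 818 to 935), or 4.86 tags per kb. Of 52858 tiles of 100 kb, empty ones included, 99.0% had fewer tags per kb, and the median tile with a tag had 0.32. Tiles were laid over both strands without regard to genes. This rank and those of the other 2 genes therefore do not compare them with other expressed genes. The Elavl2 density in CPM per kb was 1.45, 1.30, 1.60 and 1.58 in libraries 1 to 4 of brain 2. It was 1.81, 1.62, 1.61 and 1.42 in libraries 1 to 4 of brain 1. The values of the 2 brains overlapped, and the highest and the lowest library were in different brains.

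Elavl4, the HuD gene, held 270 tags (95% interval 239 to 304), or 1.78 per kb, which exceeded 94.3% of tiles. Its density in CPM per kb was 0.689, 0.400, 0.714 and 0.835 in libraries 1 to 4 of brain 2. In libraries 1 to 4 of brain 1 it was 0.483, 0.488, 0.658 and 0.504. Brain 2 held both the lowest and the highest library, so the brains overlapped. Each library gave only 20 to 46 Elavl4 tags, which limits its precision most among the 3 genes.

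Msi2, the Musashi gene, held 770 tags (95% interval 717 to 826) over its longer window, or 1.75 per kb, above 94.2% of tiles. Its density in CPM per kb was 0.399, 0.407, 0.513 and 0.597 in libraries 1 to 4 of brain 2. It was 0.675, 0.625, 0.564 and 0.605 in libraries 1 to 4 of brain 1. Library 4 of brain 2 lay above library 3 of brain 1, and the other 3 libraries of brain 2 lay below all of brain 1.

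In order of density per kb, Elavl2 stood apart from the other two genes. Its lowest library, at 1.30, was above the highest of Elavl4, at 0.835, and of Msi2, at 0.675. Elavl4 and Msi2 ranged from 0.400 to 0.835 and from 0.399 to 0.675, so their ranges overlapped. Within libraries the order of Elavl4 and Msi2 changed. Elavl4 was above Msi2 in libraries 1, 3 and 4 of brain 2 and in library 3 of brain 1, and below it in the others. This difference was not tested. The windows differ in how much flanking or empty sequence they take in, which enters each density.

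**Figure D1:**
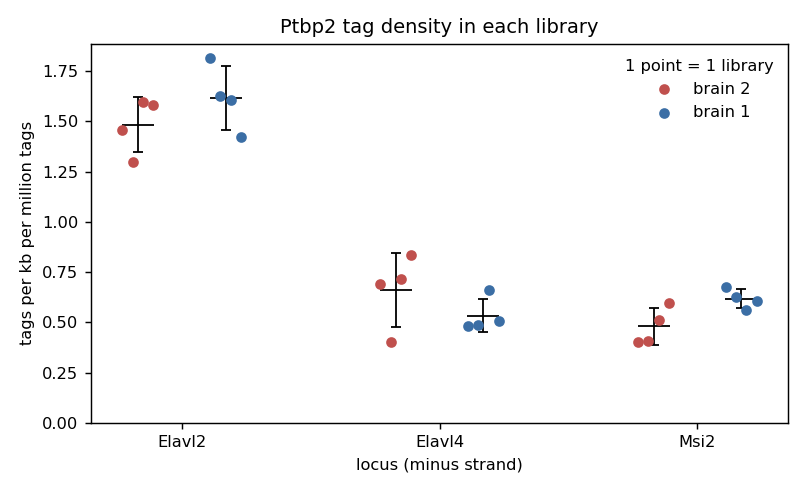
CPM per kb (vertical axis) in the Elavl2, Elavl4 and Msi2 windows, with 1 point for each library, brain 2 left of brain 1, and bars for the mean and SD of 4 libraries. All 8 Elavl2 points lie between 1.30 and 1.81, above every point of Elavl4 and Msi2, whose points overlap.

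The comparison of brain 2 with brain 1 asks whether the genes were crosslinked to the same extent in both biological replicates. None of the 3 windows passed the test. Elavl2 held 267 ± 24.8 CPM in brain 2 and 291 ± 28.95 CPM in brain 1 (SD, n = 4 libraries each). In limma voom fitted over 9953 tiles and windows, its log2 change of brain 2 over brain 1 was -0.06 ± 0.12 (SE, adjusted p = 0.904), with a 95% interval from -0.29 to 0.18. Elavl4 held 100.2 ± 28.1 CPM in brain 2 and 81.1 ± 12.7 CPM in brain 1 (SD, n = 4 each). Its log2 change was 0.33 ± 0.20 (SE, limma adjusted p = 0.51), with an interval from -0.06 to 0.72. CPM values, and the permutation tests on them, are scaled by total tags, but the log2 changes by a trimmed mean of log ratios. Scaled by total tags, the log2 changes were -0.13 for Elavl2, 0.25 for Elavl4 and -0.39 for Msi2.

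Msi2 came nearest to a difference, with 211 ± 41.4 CPM in brain 2 and 272 ± 20.4 CPM in brain 1 (SD, n = 4 each). Its log2 change was -0.31 ± 0.13 (SE, limma unadjusted p = 0.0189, adjusted p = 0.305), and 3 of 4 libraries of brain 2 lay below all of brain 1. The 95% interval, from -0.57 to -0.06, left out 0, but it is not adjusted for the number of regions tested. Of all regions tested, 0.633% passed an adjusted p of 0.05 and 12.1% had an unadjusted p under 0.05, as Msi2 did. How many had a p as low as that of Msi2 was not counted. The two-sided exact permutation test on CPM gave p = 0.257 for Elavl2, p = 0.314 for Elavl4 and p = 0.0571 for Msi2. With 4 libraries against 4, that test cannot give a p below 0.0286. A p above the threshold does not show that the brains were alike: the intervals leave room for an Elavl4 increase or an Msi2 decrease of more than 0.5 on the log2 scale.

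Smaller units gave no call within the genes either. In windows of 10 kb, 1.2% of 3757 tested over the genome passed limma voom, and 3 windows of Elavl2 and none of Elavl4 or Msi2 had enough tags to be tested. Of those 3, 0 passed and 0 had an unadjusted p under 0.05, which 10.3% of all tested windows had. The largest fitted change among them was in the window from 90990001 to 91000000, with 36 tags in brain 2 and 49 in brain 1. Its log2 change after trimmed-mean scaling was 0.59 ± 0.36 (SE, limma adjusted p = 0.643). In pooled CPM, scaled by total tags, this window held 30.9 in brain 2 and 25.3 in brain 1. The window from 91000001 to 91010000 held 25.7 and 34.7 CPM, so which change was largest depended on the scaling. Without the filter on low counts 0.0432% of 34742 windows passed and 6.8% had an unadjusted p under 0.05, and of 36 in the 3 genes 0 passed and 1 had such a p. Of 466 clusters tested over the genome 1.29% passed, and no cluster of the 3 genes met the filter on low counts. Without that filter 0.0307% of 22803 passed, and of the 11 in the 3 genes 0 passed and 0 had an unadjusted p under 0.05, which 6.03% of all had.

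Plus-strand tags in the same windows were few. The minus strand held 97.9% of the tags of both strands in Elavl2 (95% interval 96.7 to 98.7%), 91.8% in Elavl4 (88.1 to 94.7%) and 95.1% in Msi2 (93.3 to 96.4%). For comparison, the strand with more tags held a median of 93.7% in 3198 tiles of at least 200 tags, with quartiles of 87.8 and 96.8%. Elavl4 and Msi2 lay between these quartiles and Elavl2 above them. The opposite-strand tags were 19, 24 and 40 in number. Of these, 11 of the 19 in Elavl2 and 13 of the 40 in Msi2 fell in the 10 kb at the 5′ edge, where only 2 minus-strand tags lay in either window. RefSeq names C030037D09Rik as the next gene beyond that end of Msi2 and Gm40202 beyond that of Elavl2, but their part in these tags was not tested.

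Along each gene, tags were scattered through most of the window and gathered in a few places. In Elavl2 every one of 18 bins of 10 kb held tags. The fullest bin, from 91020001 to 91030000, held 137 tags or 15.7% of the gene's total. That bin was the fullest in both brains, with 52 tags in brain 2 and 85 in brain 1. It began 40 kb from the 5′ edge of the window, and the 20 kb nearest that edge held only 2 and 5 tags in their bins. From there to the 3′ edge the bins held 16 tags or more.

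The 2 fullest bins of Elavl4 held about equal numbers of tags. The bin that began 60 kb from the 5′ edge held 47 tags and the bin that began 110 kb from it held 48. In brain 2 each held 18 tags, and in brain 1 they held 29 and 30. Their surroundings differed, since the bins next to the first held 13 and 14 tags and those next to the second 30 and 21. The 60 kb between the 5′ edge and the first of these 2 bins was thin, with 4 to 13 tags in each bin. The 5′ side of the window's midpoint held 37.0% of the tags (95% interval 31.3 to 43.1%). The corresponding share was 59.0% in Elavl2 (55.6 to 62.3%, and 55.1% with the window longer by 10 kb at each end) and 52.1% in Msi2 (48.5 to 55.7%).

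In Msi2 the tags were densest toward the 5′ end. Of 4 equal parts of the window, the one at the 5′ end held 38.6% of the tags. The next held 13.5%, and the remaining parts held 24.3% and 23.6%. The fullest bin, from 88570001 to 88580000, held 55 tags, and the bin from 88160001 to 88170000, near the 3′ edge, held 52. Within the part with 13.5% lay a stretch with no tag on either strand, from 88406336 to 88460104, which is 53.8 kb long. The 13.5% counts this stretch, so it does not show that the rest of that part was thinly tagged. The next longest such stretch in the gene was 7.46 kb, and the longest in Elavl2 and Elavl4 were 7.28 and 7.65 kb. No genome of the build was used, so whether tags can map to this stretch, or whether it is a gap in the assembly, was not tested. The density and the shares of Msi2 count it as part of the window. Without it, Msi2 had 1.99 tags per kb in place of 1.75.

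The share of tags on the 5′ side of the midpoint was close in the brains. For Elavl2 it was 58.9 ± 5.97% in brain 2 and 59.6 ± 2.67% in brain 1 (SD, n = 4 each, exact permutation p = 0.886). For Elavl4 it was 37.8 ± 12.0% in brain 2 and 35.2 ± 5.40% in brain 1 (exact permutation p = 0.686, n = 4 each). For Msi2 it was 51.1 ± 8.55% in brain 2 and 52.4 ± 5.76% in brain 1 (exact permutation p = 0.714, n = 4 each). Each difference was smaller than the spread between libraries.

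**Figure D2:**
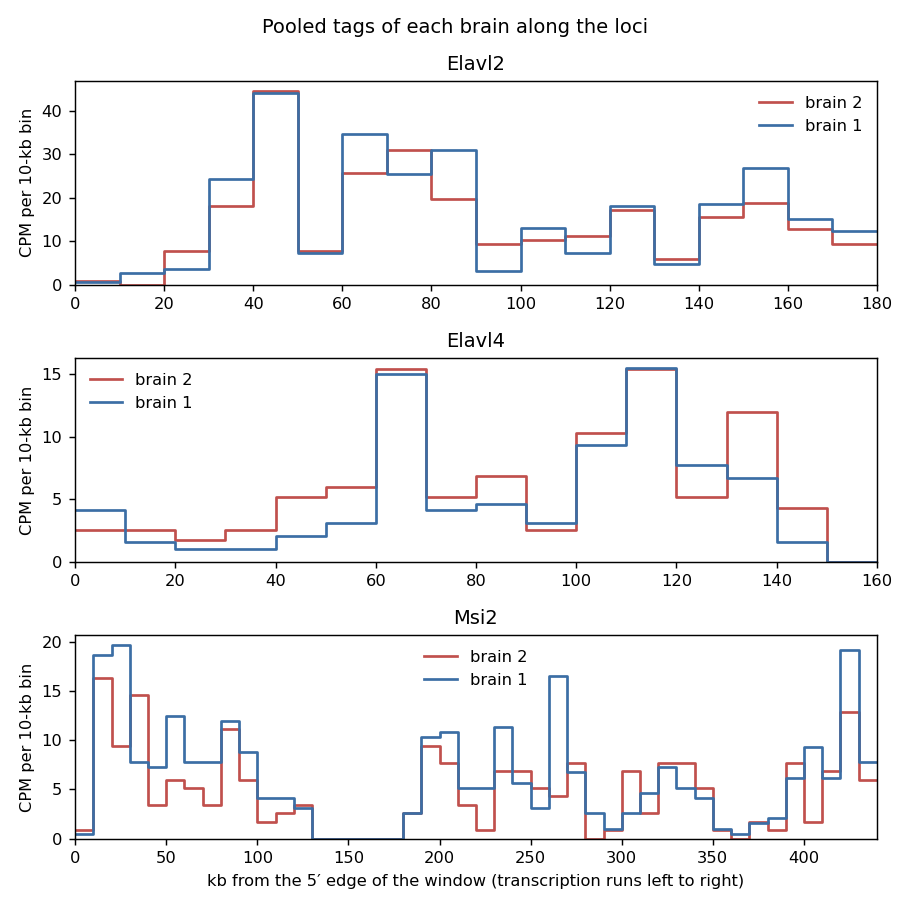
CPM of the pooled libraries of brain 2 and of brain 1 in bins of 10 kb (vertical axis) against the distance in kb from the 5′ edge of each window. The last Elavl4 bin covers only the 2 kb left in its window. Both brains peak in the Elavl2 bin that begins at 40 kb and in the Elavl4 bins at 60 and 110 kb, and both have no tags in the Msi2 bins that begin 130 to 170 kb from its 5′ edge.

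Overlapping tags of all libraries were joined into clusters, and the height of a cluster is the largest number of tags over 1 base. Tags of the 3 genes formed 1055 clusters, of which 677 were a single tag. At a height of 5 or more there were 28 clusters in Elavl2, 5 in Elavl4 and 20 in Msi2. This came to 15.6, 3.29 and 4.55 clusters per 100 kb of a strand, against 1.60 in the rest of the genome. Clusters follow density, so these rates are a description and add nothing independent of it. Such clusters held 28.1% of the Elavl2 tags, 15.9% of the Elavl4 tags and 18.6% of the Msi2 tags, against 28.7% elsewhere. At a height of 10 or more, 6, 2 and 3 clusters remained, and at 20 or more there were 2, 0 and 1.

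Of the 6 clusters of Elavl2 with a height of 10 or more, 3 stood close together toward the 5′ edge and 3 lay elsewhere. The first, from 91027679 to 91027749, had a height of 22 and 23 tags. Its tags were 1, 5, 0 and 3 in libraries 1 to 4 of brain 2 and 7, 0, 4 and 3 in libraries 1 to 4 of brain 1. Both brains contributed, but library 3 of brain 2 and library 2 of brain 1 had none. The second, from 91026072 to 91026128, had 20 tags, and it was the only one of the 5 tallest of Elavl2 seen in all 8 libraries. Its tags were 2, 2, 1 and 1 in libraries 1 to 4 of brain 2 and 5, 2, 5 and 2 in libraries 1 to 4 of brain 1.

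The fourth tallest of Elavl2, from 91022568 to 91022623, had 14 tags in 7 libraries. These 3 clusters lay within 5.18 kb, or 2.88% of the window. That stretch, chosen after the values were seen, held 114 tags or 13.0% of the gene's total, and 5 clusters of height 5 or more. The third tallest was far away, from 90911591 to 90911660, about 158 kb from the 5′ edge. It was the fullest by tags, with 28, of which 9 came from brain 2 and 19 from brain 1. The last of the 5 tallest, from 90987677 to 90987751, had 13 tags.

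In Elavl4 the 2 clusters of height 10 or more were neighbours. They lay from 109957873 to 109957920 and from 109957703 to 109957741, only 131 nt apart, and were 64.1 and 64.3 kb from the 5′ edge. The first held 14 tags, of which 5 came from brain 2 and 9 from brain 1. The second held 10, of which 3 came from brain 2 and 7 from brain 1. No other cluster of the gene was taller than 7. With repeated rows counted once per library, 1 of the 2 still reached a height of 10. The next, from 109931692 to 109931739, had 7 tags in 3 libraries. The remaining ones of the 5 tallest formed another close pair, from 109914489 to 109914518 and from 109914873 to 109914933, with 6 tags each. In all, 4 of the 5 Elavl4 clusters of height 5 or more had another within 1000 nt, as did 14 of 28 in Elavl2 and 4 of 20 in Msi2. Elsewhere in the genome the share was 33.0%. Neighbours are likelier where clusters are denser, as they were in the 3 genes, so these counts are a description only.

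The tallest cluster of the 3 genes was in Msi2, from 88572184 to 88572229, 17.8 kb from the 5′ edge of the window. It had a height of 25, with all of its 25 tags over the peak. Libraries 1 to 4 of brain 2 gave 1, 3, 1 and 5 tags, and libraries 1 to 4 of brain 1 gave 3, 5, 6 and 1. Every library held at least 1. It was also the most stacked of the 15 clusters named here, since 17 tags, or 68.0%, shared 1 start and end. With repeated positions counted once per library, 14 of its tags remained, fewer than the 18, 18 and 23 that remained in the 3 tallest clusters of Elavl2, so by that count it was not the largest. In CPM it held 9.42 ± 8.75 in brain 2 and 7.90 ± 4.99 in brain 1 (SD, n = 4 each), a difference within the spread.

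The others of Msi2 were lower and less evenly shared. The cluster from 88326091 to 88326135 had 10 tags, all from brain 1, with 6 in library 1, 3 in library 3 and 1 in library 4. The 0 tags of brain 2 allow up to 2.57 CPM there. The cluster from 88551777 to 88551831 had 10 tags too, with 8 from brain 2 and 2 from brain 1, and library 4 of brain 2 gave 5 of them. Without the filter on low counts, limma voom gave neither a call (adjusted p = 0.82 for both). The remaining ones of the 5 tallest, from 88286101 to 88286136 and from 88163598 to 88163632, had 9 and 7 tags.

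**Figure D3:**
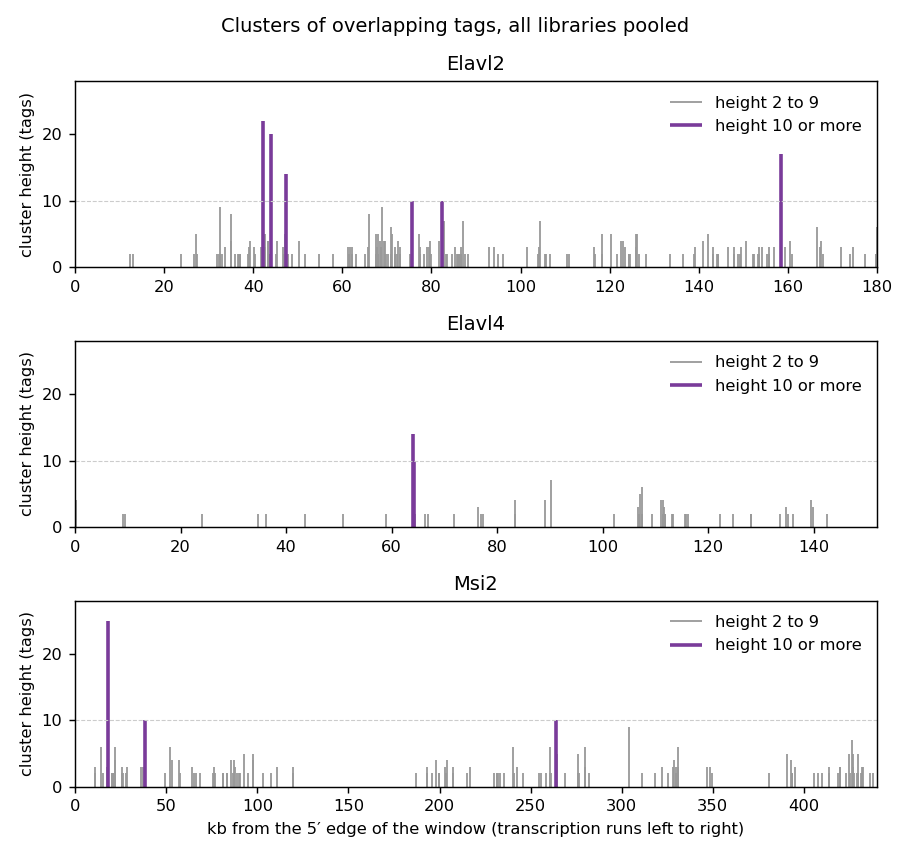
Height of each cluster of at least 2 overlapping tags (vertical axis) against its distance in kb from the 5′ edge of the window, with clusters of height 10 or more drawn thicker. Elavl2 has 6 such clusters, 3 of them within 5.18 kb, the 2 of Elavl4 lie side by side, and Msi2 has 3, the tallest at 25.

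Tags stacked differently in the tallest clusters. In the Elavl2 cluster, 8 of 23 tags shared 1 start and end, and the tags had 11 distinct 5′ ends. In the Elavl4 cluster, 6 of 14 did, with 3 distinct 5′ ends, and in the Msi2 cluster 17 of 25 did, with 4 distinct 5′ ends. The fullest 5′ end held 9 tags in Elavl2, 10 in Elavl4 and 20 in Msi2. The second tallest of Elavl2 was the most spread of these, with 13 distinct 5′ ends among 20 tags and no position with more than 3.

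**Figure D4:**
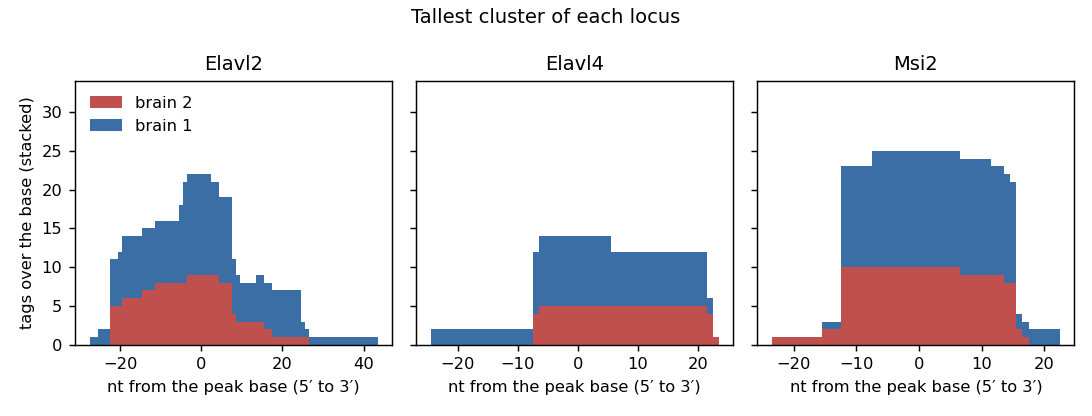
Tags over each base of the tallest cluster of each gene (vertical axis, brain 2 stacked below brain 1) against the distance in nt from the peak base, 5′ to 3′. The Msi2 and Elavl4 clusters have steep sides, the Elavl2 cluster falls off in steps, and tags of both brains lie over each peak.

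Most taller sites held tags of both brains, as they did in the rest of the series. Of the 53 clusters of height 5 or more, 44 (83.0%) held tags of both, 8 of brain 1 alone and 1 of brain 2 alone. Of 84639 such clusters in the rest of the series, 91.5% held tags of both, 6239 of brain 1 alone and 962 of brain 2 alone. Brain 1 alone thus had more of them in the series as a whole too. By gene the shared ones were 23 of 28 in Elavl2, 5 of 5 in Elavl4 and 16 of 20 in Msi2. The single cluster of brain 2 alone, in Elavl2 from 90951636 to 90951665, had 5 tags from 1 library. The tallest of brain 1 alone in Elavl2, from 90965701 to 90965752, had 7 tags and was present in all 4 libraries of that brain. Brain 2 held 1165859 tags in all and brain 1 1932995, and the part of depth in these counts was not tested.

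Some tag ends were shared too, at a share near that of the rest of the series. Of 523 distinct 5′ ends of brain 2 in the 3 genes, 88 were also 5′ ends in brain 1 (16.8%, 95% interval 13.7 to 20.3%), against 24 when brain 1 was moved by 1 nt. The rest of the series gave 18.9%, with no count after such a move to set beside the 24. By gene, 49 of 238 recurred in Elavl2, 13 of 87 in Elavl4 and 26 of 198 in Msi2.

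Full-length tags made up more of the 3 genes than of the series as a whole, a difference that was not tested. The share with the full 30 nt was 53.9% in Elavl2, 50.4% in Elavl4 and 57.3% in Msi2, against 43.1% of all tags. Rows that repeated a position within a library made up 13.0%, 13.3% and 11.3% of the tags, against 11.5% over all.

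The regions whose levels over the 8 libraries ran most like each gene were sought among 2528 tiles with at least 200 tags, by the mean absolute difference of log2 CPM after centring each on its mean. For Elavl2 the closest began at 36500001 on the minus strand of chromosome 11, at a mean difference of 0.04, against a median of 0.22 over all tiles. For Elavl4 it began at 122200001 on the minus strand of chromosome 3, at 0.12 against a median of 0.37. For Msi2 it began at 28200001 on the plus strand of chromosome 9, at 0.05 against 0.23. All libraries come from 1 tissue and stage, so this likeness describes how levels varied between libraries.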

How the data were processed

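RNA crosslinked to Ptbp2 was sequenced in 8 libraries. The deposited file lists mapped tags, 1 row per tag with position, strand and a name that opens with a library code; it holds no counts, and the counts used here were made from its rows. Reads were mapped with Bowtie, per the submitters' processing notes, which also name the builds mm9 and mm8. Positions were read as mm9. The handling of duplicate and multiply mapping reads, and the letter in the titles, were not given in the sources used here. The genes, windows and lists were chosen with earlier results of these data known.

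Tags were counted by midpoint in the 3 windows, in strand-specific tiles of 100 kb without the windows' tags, and in 10-kb windows, and were joined into clusters at an overlap of 1 nt. Counts were tested with limma 3.58.1 (voom, R 4.3.3) after scaling by a trimmed mean of log ratios, over features with the CPM of 10 tags at median depth in 4 libraries and 15 tags in all. The Benjamini-Hochberg adjustment ran over all features tested, threshold 0.05. Windows of 10 kb needed 20 tags. The test on tiles was checked on simulated counts drawn independently for each library. That check does not cover the 10-kb windows, the clusters or any link between libraries of 1 brain. Named sites are the 5 tallest clusters of each gene and any that passed. Shares carry Clopper-Pearson intervals and counts Poisson intervals (scipy 1.17.1). Same-numbered libraries of the brains, which also share a title letter, were not paired in the main fit. Their deviations from the brain means did not correlate (-0.06 to -0.02), which cannot show that they share no step of processing. Sequences at the sites, exons and introns were not analysed here, because no genome of this build was used.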

Additional observations from a re-analysis of the deposited data

Results flagged for a closer look

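The CPM, the 5′ share and the CPM of the tallest cluster of each gene were examined within each brain for a library set apart. This was seen in 1 of 18 such sets of 4 libraries, and chance gives about 1 in 20. Library 3 of brain 1 held 100.1 CPM of Elavl4, against 73.3, 74.2 and 76.7 CPM in the other libraries of that brain. Without it the log2 change of Elavl4, brain 2 over brain 1, was 0.44 (limma, adjusted p = 0.372).

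Tags just outside the windows were above the limit of 3 that a count of 0 allows at 2 edges. The 10 kb beyond the 3′ edge of Elavl2 held 63 minus-strand tags and 3 clusters of height 5 or more, of which the tallest had 3 tags from brain 2 and 14 from brain 1. The 10 kb beyond the 5′ edge of Elavl4 held 4. With each window longer by 10 kb at both ends, the log2 change of Elavl2 was -0.02 and of Elavl4 0.34.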

How the results depend on the processing

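None of the 3 genes passed the test between the brains under any of 15 alternatives (limma adjusted p from 0.684 to 0.999 for Elavl2, from 0.372 to 0.936 for Elavl4 and from 0.134 to 0.638 for Msi2). Over these the log2 change of brain 2 over brain 1 ran from 0.13 to 0.52 for Elavl4 and from -0.52 to -0.27 for Msi2, with no change of sign. For Elavl2 it ran from -0.26 to 0.000758, and it was above 0 only without library 1 of brain 1. Leaving out 1 library gave -0.13 to 0.000758 for Elavl2, 0.19 to 0.52 for Elavl4 and -0.44 to -0.27 for Msi2. With the library number as a replicate block the changes were -0.05, 0.35 and -0.30, and no call changed.

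Over all regions 63 passed, against 18 to 70 with 1 library left out. With libraries that share a title letter summed, 0 of 22224 passed in limma, and 1686 had an unadjusted p under 0.05. Over all 10-kb windows 45 passed, against 8 after scaling by total tags, 15 without the filter and 14 with repeated rows once. Over all clusters 6 passed, against 15 after scaling by total tags. No window of the 3 genes passed under any alternative run, with 2 to 36 tested. Their clusters were tested only without the filter, where 0 of 11 passed and 0 had an unadjusted p under 0.05; under all other settings none was tested, so these say nothing about them.

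Clusters of height 10 or more numbered 4 in Elavl2, 1 in Elavl4 and 1 in Msi2 with repeated rows once, and 2, 0 and 1 at a height of 20. With 1 library left out they numbered 4 to 6, 1 to 2 and 1 to 3. The count of Elavl4 was 1 without any library other than library 2 of brain 2, and that of Msi2 was 1 without library 3 or library 4 of brain 1. Densities moved by less than the spread between libraries with windows trimmed or longer by 10 kb at each end and with repeated rows once. So did the 5′ shares with repeated rows once and with longer windows, which gave 55.1% for Elavl2, 37.7% for Elavl4 and 52.1% for Msi2. Longer windows, and both settings for the 5′ shares, were chosen after seeing the data.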
